A study of Mus musculus with 11 samples.

Results

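The genes of cholesterol and fatty acid synthesis were compared between the colons of 5 germ-free and 6 humanized mice. They were chosen by name from the deposited count table as 33 of its 43346 genes, all of which were found and all of which passed the low-expression filter that kept 19863 genes. The 33 genes hold 17 sterol enzymes, 6 regulators and carriers of the sterol response, and 10 enzymes of fatty acid synthesis, elongation and desaturation. All mice were male Swiss Webster mice studied at 8 to 10 weeks of age. Germ-free mice had no microbiota. Humanized mice were born germ-free, were gavaged with 300 μL of a stool suspension from 1 human donor at 4 to 5 weeks of age, and carried that microbiota for 4 to 5 weeks, so the group stands for 1 donor community. Both groups were singly housed in isolators of the same kind and were given the same autoclaved diet. Which isolator held which mice is not stated, so effects of isolator and group cannot be told apart. RNA came from colonic tissue, in which fewer cells of a type and less RNA per cell cannot be told apart.

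Cholesterol is built from acetyl-CoA, first through the mevalonate steps to farnesyl diphosphate and then through squalene and lanosterol to the finished sterol. Fatty acid synthesis draws on the same cytosolic acetyl-CoA, which ATP citrate lyase makes from citrate, and needs NADPH at each turn of the chain. Both branches are under the sterol regulatory element-binding proteins, of which Srebf2 is mainly tied to sterol genes and Srebf1 to fatty acid genes. These factors are released from the endoplasmic reticulum by Scap and held there by the Insig proteins when sterols are plentiful.

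Expression is given as RPKM, a read count scaled to gene length and library size after TMM normalization, which sets most genes of the libraries level. A positive log2-fold change (LFC) means higher expression in humanized mice, and FDR is the Benjamini–Hochberg adjusted p of edgeR's exact test over all 19863 tested genes. A gene is called higher or lower at FDR below 0.01, the threshold of the study's methods. Standard errors (SE) and 95% intervals of the LFC were taken from the quasi-likelihood model. Between 39125290 and 64148538 reads per mouse were counted on genes. Epithelial markers were abundant in every mouse, and Epcam, the epithelial adhesion molecule, had 753 RPKM on average in germ-free and 777 RPKM in humanized mice. All 11 epithelial markers had an LFC above 0, with a median of 0.27, and that of Epcam was the smallest (0.05).

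None of the 17 sterol enzymes was called in either direction by edgeR's exact test, whereas 4 of the 10 fatty acid enzymes were, with Me1 and Elovl6 higher and Acaca and Scd1 lower in humanized mice. Of the 6 regulators, only Insig2 was called, and it was higher. Over all tested genes, 19.3% were called, with 9.2% higher and 10.1% lower. With edgeR's quasi-likelihood test, 6.53% of all genes were lower, and of the 33 only Acaca was. The median LFC was −0.02 for the sterol enzymes, −0.22 for the fatty acid enzymes and 0.01 for all tested genes. The median absolute LFC, the size of a change regardless of its direction, was 0.12 for the sterol enzymes, 0.47 for the fatty acid enzymes and 0.22 for all tested genes. Whether the branches differ was not tested. Signs of the small sterol changes depend on the scaling: with libraries scaled to 11 epithelial markers in place of TMM, the sterol median was −0.27 and the fatty acid median −0.47, where all genes had a median of −0.24.

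**Figure D1:**
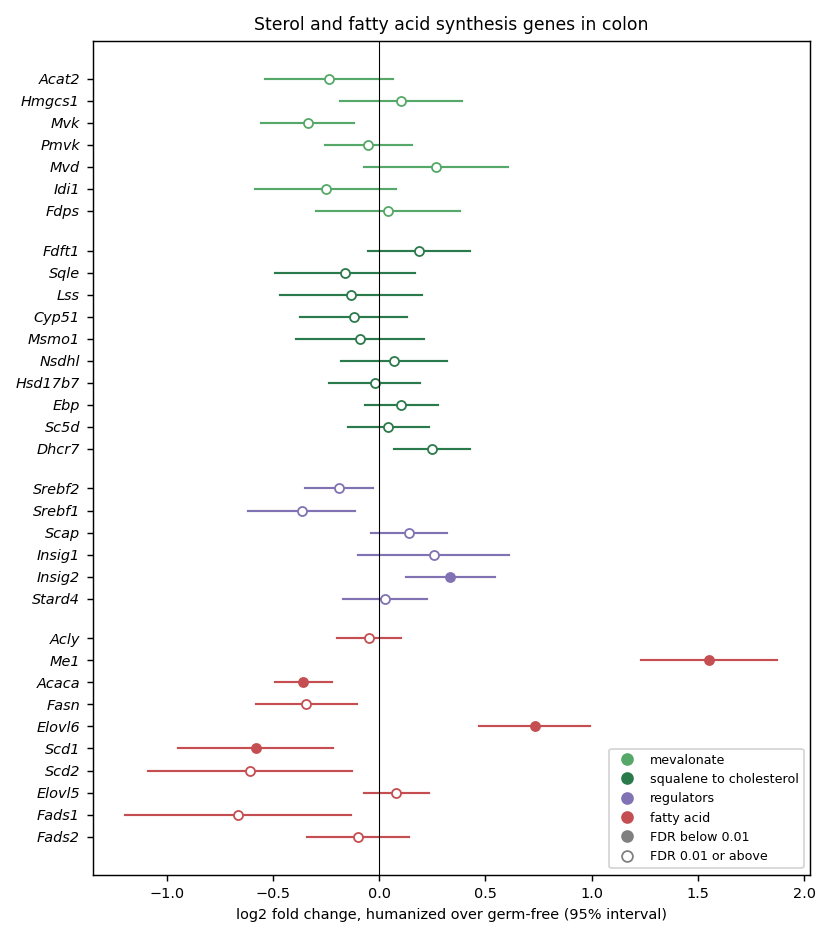
LFC of each of the 33 genes in humanized over germ-free colon (points, log2 scale) with its 95% interval (lines), coloured by role, with filled points at FDR below 0.01. The sterol enzymes lie between −0.34 and 0.27 with open points only, whereas the fatty acid enzymes reach from −0.66 (Fads1) to 1.55 (Me1).

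Me1 encodes the cytosolic malic enzyme, which turns malate into pyruvate and yields NADPH for fatty acid synthesis. It lies on chromosome 9 from 86581371 to 86695953 (mm10). In germ-free mice 1 to 5 its expression was 7.69, 4.57, 6.83, 5.00 and 7.45 RPKM, and in the humanized mice it ranged from 14.9 to 21.05 RPKM with a median of 19.0 RPKM. Every humanized mouse was above every germ-free mouse. The mean rose from 6.31 ± 1.43 RPKM (SD, n = 5) to 18.5 ± 2.46 RPKM (SD, n = 6), a 2.93-fold increase (LFC 1.55, SE 0.15, FDR = 6.46e-21).

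Elovl6 encodes the elongase that lengthens palmitate to stearate, and lies on chromosome 3 from 129532386 to 129638495. Its values in germ-free mice 1 to 5 were 8.97, 12.2, 11.3, 11.03 and 13.2 RPKM, and those of humanized mice ran from 13.5 to 21.4 RPKM with a median of 19.6 RPKM. The groups did not overlap, although the lowest humanized mouse, number 4, lay close to the highest germ-free mouse, number 5. On average Elovl6 was 1.66-fold higher in humanized mice (11.3 ± 1.57 RPKM, SD, n = 5, against 18.8 ± 2.82 RPKM, SD, n = 6; LFC 0.73, SE 0.12, FDR = 4.44e-07). Elovl5, the elongase of polyunsaturated chains, had an LFC of 0.08 with an interval from −0.07 to 0.23.

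Acaca encodes acetyl-CoA carboxylase 1, which commits acetyl-CoA to fatty acid synthesis by making malonyl-CoA, and lies on chromosome 11 from 84129672 to 84401651. Germ-free mice 1 to 5 had 6.28, 5.96, 5.64, 5.57 and 5.73 RPKM, and humanized mice had 4.33 to 5.31 RPKM with a median of 4.43 RPKM. All humanized mice were below all germ-free mice, and 5 of the 6 lay within a narrow range at or below 4.49 RPKM. Acaca fell from 5.84 ± 0.289 RPKM (SD, n = 5) to 4.56 ± 0.372 RPKM (SD, n = 6), which is 1.28-fold lower (LFC −0.36, SE 0.06, FDR = 4.22e-05).

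Fasn, the fatty acid synthase that builds palmitate from malonyl-CoA, had an LFC close to that of Acaca. It was not called with TMM, the default low-expression filter and all mice. It had 20.7, 22.3, 22.7, 19.1 and 23.1 RPKM in germ-free mice 1 to 5, and from 13.6 to 20.8 RPKM with a median of 16.2 RPKM in humanized mice. Humanized mice 1 and 3 overlapped with the germ-free range and the other 4 lay below it (LFC −0.34, SE 0.11, FDR = 0.017). Fasn was below an FDR of 0.01 without humanized mouse 1 (FDR = 0.00277) or without humanized mouse 3 (FDR = 0.00308). It was called in 4 of the 8 other tests, scalings and filters, among them total counts (LFC −0.53, FDR = 0.000157) and scaling to epithelial markers (LFC −0.58, FDR = 0.00144). Acly, the ATP citrate lyase upstream of both branches, had 37.3, 38.7, 41.5, 36.6 and 39.8 RPKM in germ-free mice and 33.6 to 43.4 RPKM with a median of 37.0 RPKM in humanized mice. The groups overlapped throughout (LFC −0.05, interval −0.20 to 0.10, FDR = 0.721).

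Of the 4 desaturases, Scd1 was called lower, Scd2 and Fads1 were lower on average without passing the threshold, and the interval of Fads2 spanned 0. Scd1 and Scd2 are stearoyl-CoA desaturases, which place the first double bond in palmitate and stearate, and lie in the same cluster of desaturase genes on chromosome 19. Scd1, from 44394451 to 44407709, had 5.93, 4.21, 5.77, 7.73 and 6.09 RPKM in germ-free mice 1 to 5, and 2.82 to 5.14 RPKM with a median of 4.12 RPKM in humanized mice. Germ-free mouse 2 fell within the humanized range. The mean went from 5.94 ± 1.25 RPKM (SD, n = 5) to 3.98 ± 0.864 RPKM (SD, n = 6) (LFC −0.58, SE 0.17, FDR = 0.00632), and the call was lost when germ-free mouse 1, 3, 4 or 5 or humanized mouse 4 or 6 was left out, with FDR between 0.0153 and 0.0413. It was also lost with edgeR's quasi-likelihood test (FDR = 0.0218).

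Scd2, from 44293676 to 44306864, had the highest level of the 33 genes per length when the means of both groups were averaged, although in humanized mice Hmgcs1 was higher on average (71.7 against 62.9 RPKM). The latter order depends on the deposited length of Hmgcs1, 3233 bases, where its GENCODE exons hold 4594 bases. Expression of Scd2 was 91.8, 111, 95.9, 73.7 and 107 RPKM in germ-free mice 1 to 5, and 38.1 to 87.4 RPKM with a median of 64.9 RPKM in humanized mice. Humanized mice 1, 2 and 3 lay between 79.8 and 87.4 RPKM and overlapped with the germ-free mice, whereas humanized mice 4, 5 and 6 lay between 38.1 and 49.9 RPKM (LFC −0.61, SE 0.22, FDR = 0.0271). Without humanized mouse 1 the FDR was 0.00852, and Scd2 was also called with total counts (FDR = 0.00356) and with epithelial scaling (FDR = 0.0085). The level of Scd2 was 17.1 ± 6.04 times that of Scd1 in germ-free mice (SD, n = 5) and 15.6 ± 3.24 times in humanized mice (SD, n = 6), with overlapping ranges.

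Fads1 and Fads2 encode the delta-5 and delta-6 desaturases of polyunsaturated fatty acid synthesis and also lie on chromosome 19. Fads1 was chosen for its values because its groups did not overlap and it was still not called. It had 5.83, 4.94, 6.02, 7.86 and 6.11 RPKM in germ-free mice 1 to 5 and 1.45 to 4.70 RPKM with a median of 4.48 RPKM in humanized mice. Humanized mouse 5 stood far below the others, of which the next lowest had 3.50 RPKM (LFC −0.66, SE 0.24, FDR = 0.0341). Without humanized mouse 5 the LFC was −0.49 and the FDR 0.00172, and with total counts the FDR was 0.00822. Fads2 had 27.4 ± 2.21 RPKM (SD, n = 5) in germ-free and 25.6 ± 4.69 RPKM (SD, n = 6) in humanized mice (LFC −0.10, interval −0.34 to 0.14).

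Germ-free mouse 4 had the highest values of both Scd1 and Fads1. Of the 8 adipocyte markers, the same library held most of the reads of Adipoq, Plin1, Lep, Cfd and Retn, but not of Pparg, Fabp4 and Cidec. It had 333 counts of Adipoq, where no other mouse had more than 40. It had 1023 counts of Cfd, where no other mouse had more than 109. Of the 8 markers, 4 passed the filter, and their summed level was 90.9 to 128 CPM in germ-free and 124 to 161 CPM in humanized mice, most of it from Pparg, which colon epithelium also expresses. Without germ-free mouse 4, Scd1 had an LFC of −0.47 (FDR = 0.0413). The part of adipose tissue in these values was not tested further.

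**Figure D2:**
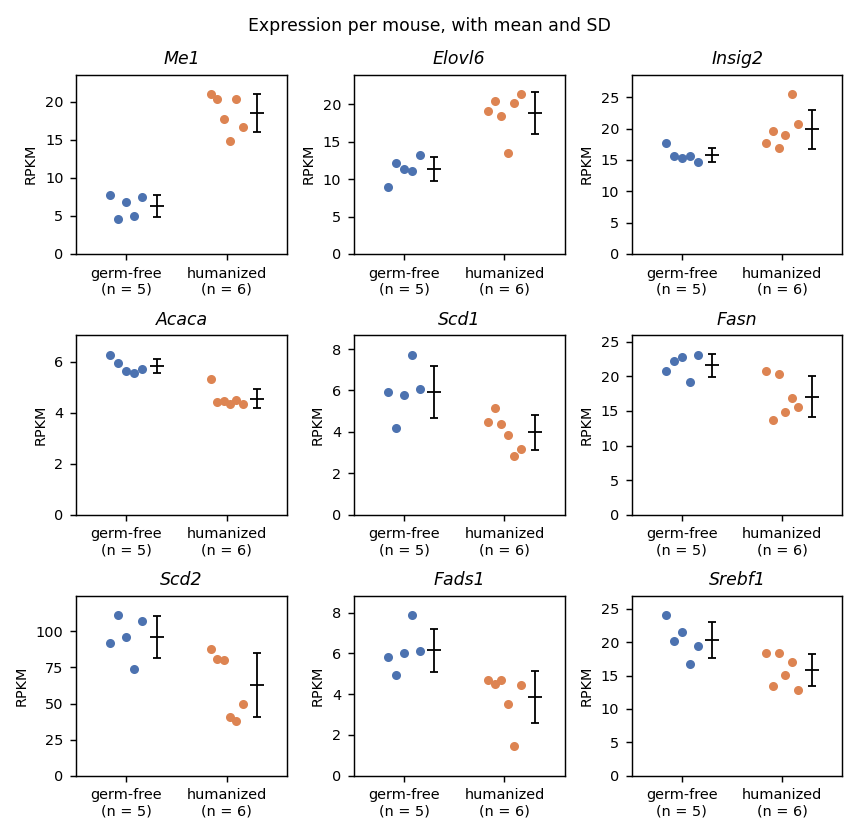
RPKM of 9 genes in each mouse (points, linear axes from 0) with the mean and SD of each group (bars, n = 5 germ-free and n = 6 humanized mice). Me1, Elovl6, Acaca and Fads1 show no overlap of the groups, and Scd2 splits the humanized mice into 3 near 80 RPKM and 3 at or below 49.9 RPKM.

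Across the 33 genes, the groups did not overlap for 4, namely Me1, Elovl6, Acaca and Fads1, and over all tested genes this was so for 18.4%. Acaca and Fads1 were the lower ones, against 9.73% of all tested genes. All 4 belong to the fatty acid branch.

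The mevalonate enzymes carry acetyl-CoA to farnesyl diphosphate, and none of the 7 was called. Hmgcs1, the cytosolic synthase that makes HMG-CoA, lies on chromosome 13 from 119690462 to 119708086 and was the most abundant sterol enzyme per length. It had 58.6, 76.1, 68.5, 60.8 and 70.4 RPKM in germ-free mice 1 to 5, and 53.2 to 85.9 RPKM with a median of 76.4 RPKM in humanized mice. The humanized mice spanned the whole germ-free range and went past it on both sides (LFC 0.10, SE 0.13, interval −0.19 to 0.39, FDR = 0.653).

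Mvk, the mevalonate kinase, was the mevalonate enzyme closest to the threshold, with 6.94 to 9.07 RPKM in germ-free and 5.43 to 8.12 RPKM in humanized mice (LFC −0.34, SE 0.10, FDR = 0.0213). Only humanized mouse 1 lay inside the germ-free range, and without it the FDR was 0.00132. Mvk was called lower in 5 of the 8 other tests, scalings and filters, DESeq2 among them (FDR = 0.00848). Its neighbours in the pathway were not called. Pmvk, the phosphomevalonate kinase, had an LFC of −0.05 (FDR = 0.798) and Mvd, the decarboxylase of the next step, an LFC of 0.27 (FDR = 0.241). Idi1, the isopentenyl diphosphate isomerase, had an LFC of −0.25 (FDR = 0.247) and Fdps, the farnesyl diphosphate synthase, an LFC of 0.04 (FDR = 0.892). Acat2, the cytosolic thiolase of the first step, had an LFC of −0.23 (FDR = 0.256). Its close paralog Acat3, with which reads can be shared, had an LFC of 0.19 (FDR = 0.109).

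From squalene to cholesterol, none of the 10 enzymes was called, with LFC values between −0.16 and 0.25. Sqle, the squalene epoxidase and a rate-limiting step, had 12.5, 15.5, 14.03, 11.7 and 15.6 RPKM in germ-free mice 1 to 5, and 8.59 to 15.9 RPKM with a median of 13.3 RPKM in humanized mice. The groups overlapped, with humanized mice 4 and 5 below every germ-free mouse (LFC −0.16, SE 0.15, FDR = 0.491). Dhcr7, the reductase of the final step, had the lowest FDR of the 10, with 21.4 to 26.8 RPKM in germ-free and 24.6 to 33.6 RPKM in humanized mice (LFC 0.25, SE 0.08, FDR = 0.0302), and it was called higher only when humanized mouse 4 was left out (FDR = 0.00648). The other 8 had an FDR of 0.258 or above. These were Fdft1, the squalene synthase (LFC 0.19), Lss, the lanosterol synthase (LFC −0.13), the lanosterol demethylase Cyp51 (LFC −0.12), the C4 demethylation enzymes Msmo1 (LFC −0.09), Nsdhl (LFC 0.07) and Hsd17b7 (LFC −0.02), the sterol isomerase Ebp (LFC 0.10) and the desaturase Sc5d (LFC 0.04). In the GENCODE annotation, 18.3% of the exonic bases of Fdft1 overlap those of Ctsb on the opposite strand, which the library kit does not tell apart, and 26.7% of those of Fdps overlap Gm43738 on the same strand. Smaller overlaps of sterol enzymes on the opposite strand were found for Hmgcs1 (12.1%, Gm48342), Idi1 (9.22%, Gm48574), Cyp51 (3.76%, Akap9) and Lss (3.53%, 4930483K19Rik). Gm43738, Gm48342 and Gm48574 are not among the counted genes, so no reads were assigned to them. These shares refer to GENCODE exons, which can differ from the deposited lengths. For Fdps they hold 4208 against 1241 bases, and for Fdft1 4227 against 2860 bases.

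Intervals of the sterol enzymes under TMM were narrow. For 16 of the 17, the 95% interval lay within a 1.5-fold change in either direction, and the exception was Mvd, whose interval reached 0.61. These bounds depend on the scaling: with scaling to epithelial markers the LFC was −0.58 for Mvk, which was then called (FDR = 0.000415), −0.49 for Idi1, −0.47 for Acat2 and −0.39 for Sqle. The count of 0 called came with 2 enzymes at an unadjusted p below 0.05, Mvk and Dhcr7, or 11.8% of the 17, where 37.4% of all tested genes had such a p. The quasi-likelihood test called none, and DESeq2 called Mvk.

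Averaged over the 17 sterol enzymes under TMM, expression differed more between mice of a group than between the groups. This need not hold for a single enzyme such as Mvk or Dhcr7. As a mean over the 17 enzymes of log2 CPM relative to the germ-free mean, germ-free mice ran from −0.14 to 0.17 and humanized mice from −0.29 to 0.25. The mice were ordered alike for many of the enzymes. Humanized mouse 1 had the highest humanized value for 12 of the 17 and humanized mouse 6 for the other 5, whereas humanized mice 4 and 5 had the lowest for 6 and 7 of them. In germ-free mice, number 2 was highest for 10 of the 17, and numbers 1 and 4 were lowest for 9 and 7. No humanized mouse other than 1 and 6 was highest for any sterol enzyme. The summed level of 6 proliferation markers was also highest in humanized mouse 1 (329 CPM) and lowest in humanized mice 4 (234 CPM) and 5 (203 CPM). In germ-free mice the orders did not match, although mouse 1 was low in both (215 CPM). Germ-free mouse 2, the highest in the sterol mean, was second lowest in these markers (240.5 CPM). Germ-free mouse 4, the lowest in the sterol mean, was second highest in them (260 CPM). The part of proliferation in the sterol values was not tested. The fatty acid enzymes followed in part, with humanized mouse 1 highest for 7 of the 10 and humanized mouse 5 lowest for 4.

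**Figure D3:**
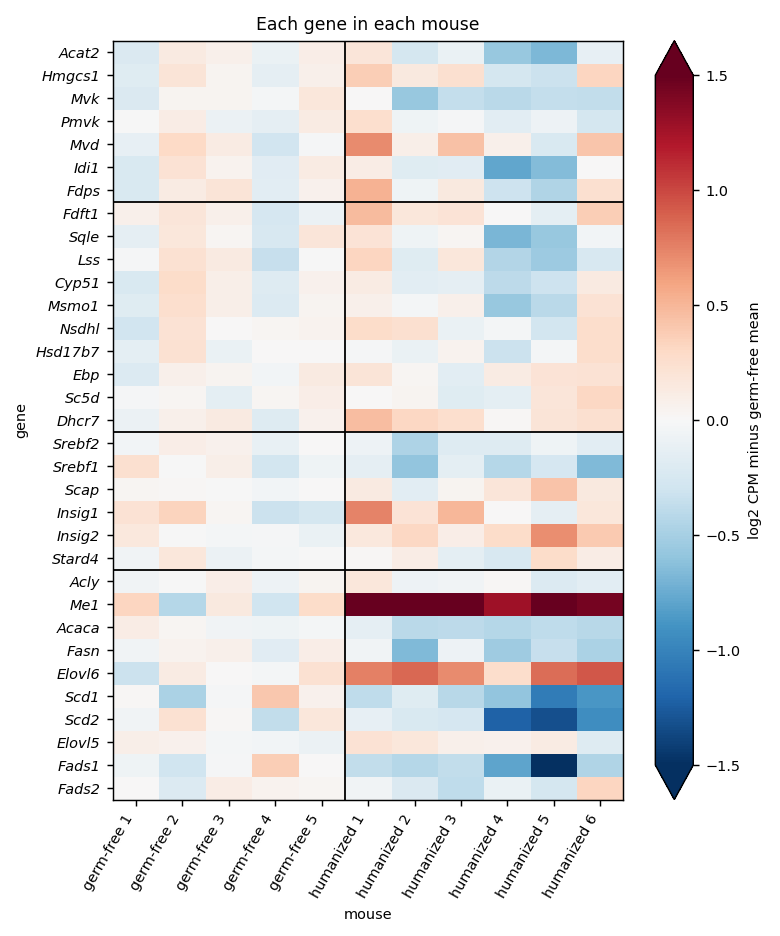
Log2 CPM of each of the 33 genes in each of the 11 mice relative to the germ-free mean of the gene (colour, cut at 1.5 in either direction), with black lines between roles and groups. Me1 and Elovl6 are above the germ-free mean in all 6 humanized mice, Acaca and Scd1 below it, and the sterol enzymes vary by mouse, with humanized mouse 1 high and humanized mice 4 and 5 low.

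The mean over the fatty acid enzymes, in which opposite changes cancel, was −0.05 ± 0.18 in humanized mice (SD, n = 6) relative to germ-free mice (SD 0.06, n = 5). The difference between the sterol mean and the fatty acid mean was 0.02 ± 0.11 in humanized mice (SD, n = 6) and ranged from −0.10 to 0.19, within the germ-free range of −0.14 to 0.26. In both branches humanized mice 4 and 5 were the lowest and humanized mouse 1 the highest. Humanized mouse 6 was above the germ-free mean in sterol enzymes (0.11) and below it in fatty acid enzymes (−0.08).

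**Figure D4:**
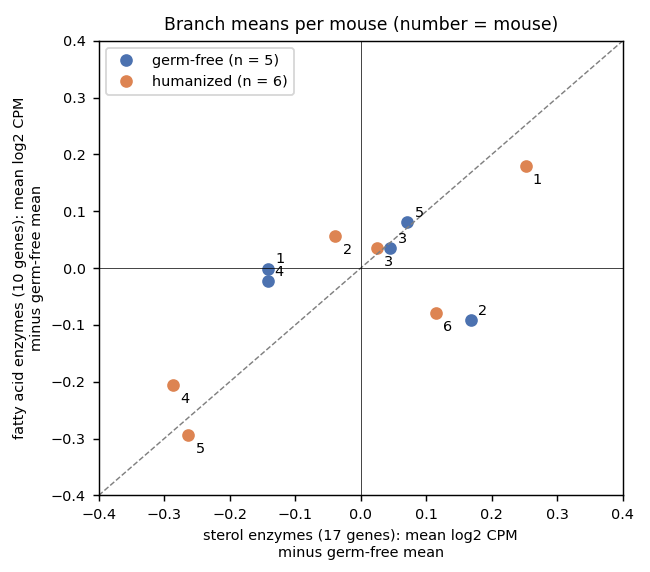
Mean log2 CPM of the 10 fatty acid enzymes against that of the 17 sterol enzymes in each mouse, both relative to the germ-free mean, with the mouse number beside each point and a dashed line of equal change. The groups overlap on both axes, and humanized mice 4 and 5 lie at the lower left and humanized mouse 1 at the upper right.

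Promoter sequences of 26 of the 33 genes were matched in RefSeq (GRCm38.p6), and the 250 bases before each transcription start were searched on both strands. They are shown here because the sterol enzymes varied together between mice. The letters CCAAT, the box bound by NF-Y, which acts beside the sterol regulatory element-binding proteins at many sterol genes, were found for 13 of the 14 sterol enzymes with a promoter, for 3 of 7 fatty acid enzymes and for 4 of 5 regulators. Among all 12289 tested genes with a promoter the share was 39.4%, and it was 33.8% of all 32851 promoters of this length. The letters GGGCGG, a GC box, were held by the same numbers of sterol and fatty acid enzymes, 13 of 14 and 3 of 7, and by 58.7% of tested genes. The letters TCACNCCAC, the core of the sterol regulatory element, were in 1 of the 14 sterol enzymes, Hmgcs1, and in 1.31% of tested genes. Genes with several starts were counted once, with a match at any start. A match describes the letters only. Some windows overlap annotated exons: that of Idi1 and the only Dhcr7 window with CCAAT do so over all 250 bases, and that of Msmo1 over 214. The windows of Hmgcs1, Mvd and Ebp, of Fasn, and of 1 of the 3 RefSeq starts of the called regulator Insig2 follow, 5′ to 3′ on the strand of the gene, with CCAAT or its complement ATTGG in capitals and, in Hmgcs1 only, TCACCCCAC as well. The other 2 windows of Insig2 hold no CCAAT. In Fasn, 2 of the 3 matches overlap each other.
Hmgcs1 (chr13:119690101-119690350, + strand): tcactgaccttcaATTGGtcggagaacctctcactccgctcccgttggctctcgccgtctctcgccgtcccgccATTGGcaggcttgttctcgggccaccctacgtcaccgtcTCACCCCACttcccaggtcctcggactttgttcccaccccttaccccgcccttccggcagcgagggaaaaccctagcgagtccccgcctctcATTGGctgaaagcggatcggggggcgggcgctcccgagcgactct
Mvd (chr8:122443423-122443672, - strand): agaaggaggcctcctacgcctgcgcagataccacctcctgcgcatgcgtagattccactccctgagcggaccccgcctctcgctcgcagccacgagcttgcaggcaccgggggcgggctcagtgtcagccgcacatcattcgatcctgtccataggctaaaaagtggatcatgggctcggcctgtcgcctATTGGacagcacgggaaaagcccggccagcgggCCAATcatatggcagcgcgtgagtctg
Ebp (chrX:8193513-8193762, - strand): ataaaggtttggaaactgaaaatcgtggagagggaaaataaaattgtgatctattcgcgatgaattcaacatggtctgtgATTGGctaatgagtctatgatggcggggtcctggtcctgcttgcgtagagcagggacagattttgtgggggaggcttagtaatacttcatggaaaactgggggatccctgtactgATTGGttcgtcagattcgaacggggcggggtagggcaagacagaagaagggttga
Fasn (chr11:120824548-120824797, - strand): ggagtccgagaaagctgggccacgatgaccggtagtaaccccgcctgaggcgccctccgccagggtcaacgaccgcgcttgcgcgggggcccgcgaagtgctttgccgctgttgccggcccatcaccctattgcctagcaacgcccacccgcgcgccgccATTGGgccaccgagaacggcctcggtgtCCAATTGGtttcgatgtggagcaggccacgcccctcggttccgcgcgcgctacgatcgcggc
Insig2 (chr1:121332590-121332839, - strand): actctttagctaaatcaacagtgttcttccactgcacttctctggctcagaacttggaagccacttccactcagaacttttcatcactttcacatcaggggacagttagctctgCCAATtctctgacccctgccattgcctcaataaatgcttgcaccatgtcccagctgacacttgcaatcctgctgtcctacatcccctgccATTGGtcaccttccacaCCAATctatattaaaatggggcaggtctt

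Among the regulators, both transcription factor genes were lower on average. Neither was called with TMM, the default low-expression filter and all mice. Both were called lower with total counts (Srebf2 LFC −0.38, FDR = 5.16e-05, and Srebf1 LFC −0.55, FDR = 0.000227) and with scaling to epithelial markers (LFC −0.44, FDR = 0.000655, and LFC −0.62, FDR = 0.00353). Srebf2, on chromosome 15 from 82147266 to 82205376, had 50.0, 55.01, 53.8, 47.7 and 51.5 RPKM in germ-free mice 1 to 5, and 37.3 to 49.1 RPKM with a median of 45.6 RPKM in humanized mice. Humanized mice 1 and 5 lay above germ-free mouse 4 and below the other germ-free mice (LFC −0.19, SE 0.07, interval −0.35 to −0.03, FDR = 0.0801). Srebf1, on chromosome 11 from 60199089 to 60222581, had 24.0, 20.2, 21.6, 16.7 and 19.4 RPKM in germ-free mice and 12.8 to 18.4 RPKM with a median of 16.02 RPKM in humanized mice. Germ-free mouse 4 alone lay within the humanized range (LFC −0.37, SE 0.12, FDR = 0.0142). Srebf1 was called lower without germ-free mouse 4 (FDR = 0.00458), humanized mouse 1 (FDR = 0.0077) or humanized mouse 3 (FDR = 0.00539). It was also called lower with upper quartile scaling or a minimum of 10 counts in every mouse.

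Insig2 lies on chromosome 1 from 121304353 to 121332589 and encodes one of the proteins that retain Scap. It had 17.6, 15.6, 15.4, 15.6 and 14.7 RPKM in germ-free mice 1 to 5, and 16.9 to 25.6 RPKM with a median of 19.3 RPKM in humanized mice. Germ-free mouse 1 overlapped with humanized mice 1 and 3, and humanized mouse 5 was the highest. Insig2 was 1.26-fold higher on average (LFC 0.33, SE 0.10, FDR = 0.00963). Its call stood only without germ-free mouse 1, humanized mouse 1 or humanized mouse 3 and was lost in the other 8 sets that leave out a mouse, namely germ-free mice 2 to 5 and humanized mice 2, 4, 5 and 6, with FDR up to 0.0412. It stood in 1 of the 8 other tests, scalings and filters, DESeq2 (FDR = 0.00987). It was lost with the quasi-likelihood test (FDR = 0.0223), RLE scaling (FDR = 0.0112), upper quartile scaling (FDR = 0.0155), no filter (FDR = 0.0176) and a minimum of 10 counts in every mouse (FDR = 0.0157), and the LFC was 0.14 with total counts and 0.06 with scaling to epithelial markers.

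Insig1, the partner of Insig2 and itself a target of the sterol response, had 37.7, 40.6, 32.9, 25.9 and 26.9 RPKM in germ-free mice 1 to 5, and 29.3 to 54.0 RPKM with a median of 36.8 RPKM in humanized mice. The ranges overlapped, with humanized mouse 1 again the highest (LFC 0.26, SE 0.16, FDR = 0.276). Scap, the escort of the transcription factors, was nearly constant in germ-free mice, at 17.7 to 18.6 RPKM, and ran from 16.4 to 24.5 RPKM in humanized mice (LFC 0.14, FDR = 0.285). Stard4, a sterol carrier of the cytosol, was abundant in both groups (52.5 ± 3.77 RPKM, SD, n = 5, and 53.5 ± 6.88 RPKM, SD, n = 6, LFC 0.03, FDR = 0.877).

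Other genes of these pathways were counted from lists outside the 33, and their directions were tested under TMM only. NADPH for synthesis comes mainly from the pentose phosphate pathway, cytosolic isocitrate dehydrogenase and cytosolic malic enzyme. Of a list of 5 dehydrogenases and malic enzymes, which also holds the mitochondrial malic enzymes, 4 were called higher in humanized mice. Over all tested genes, 9.2% were called higher and 10.1% lower. They were the pentose phosphate dehydrogenases G6pdx (LFC 0.49, FDR = 8.52e-09) and Pgd (LFC 0.50, FDR = 9.91e-04), the cytosolic isocitrate dehydrogenase Idh1 (LFC 0.36, FDR = 0.00113), and Me2, a mitochondrial malic enzyme that mainly yields NADH and is no source of cytosolic NADPH (LFC 0.50, FDR = 0.00682). The fifth, the mitochondrial malic enzyme Me3, had 0.417 RPKM in germ-free and 0.262 RPKM in humanized mice and was lower (LFC −0.67, FDR = 0.00604). With the quasi-likelihood test only 2 of the 5, G6pdx and Idh1, stayed called, and the FDR was 0.0102 for Pgd, 0.0243 for Me2 and 0.0144 for Me3. That test called 1401 of the 19863 tested genes higher and 1298 lower.

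Of 19 further fatty acid synthesis genes, 18 passed the filter, 3 were called higher and 1 lower, a share near the 19.3% of all tested genes. Acacb, the acetyl-CoA carboxylase whose malonyl-CoA restrains fatty acid oxidation at mitochondria, moved opposite to Acaca, from 1.46 to 4.34 RPKM (LFC 1.57, FDR = 1.63e-15). The elongase Elovl7 (LFC 0.36, FDR = 4.38e-04) and the dehydratase Hacd2 (LFC 0.28, FDR = 0.00896) were higher. Elovl4, an elongase of very long chains, was nearly unexpressed and lower (LFC −1.76, FDR = 0.00265), a call lost with the quasi-likelihood test (FDR = 0.0283). Of 13 genes that process, degrade or answer to the sterol sensors, 1 was called, against 19.3% of all tested genes. It was the ubiquitin ligase Rnf145 (LFC −0.32, FDR = 8.75e-04).

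Liver X receptors answer to oxidized sterols and raise cholesterol export. Of 10 genes of this response, 4 were called lower and 1 higher in humanized mice, against 10.1% and 9.2% of all tested genes. The exporters Abca1 (LFC −1.23, FDR = 1.82e-06) and Abcg1 (LFC −0.94, FDR = 8.58e-05), the receptor gene Nr1h3 (LFC −0.55, FDR = 9.54e-04) and the ubiquitin ligase Mylip (LFC −0.57, FDR = 7.08e-04) were lower. Lpcat3, which places polyunsaturated chains in phospholipids, was higher (LFC 0.39, FDR = 4.46e-04). The exporters Abcg5 (LFC 0.95, FDR = 0.454) and Abcg8 (LFC 0.58, FDR = 0.64) were expressed at low levels and were not called. Of the 10 genes, 6 had an LFC above 0, and the median was 0.04.

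All 9 smooth muscle markers were called lower, with a summed level of 567 to 1736 CPM in germ-free and 77.3 to 609 CPM in humanized mice. Of 7 fibroblast markers, 5 were called lower, with a sum of 504 to 792 CPM in germ-free and 60.8 to 412 CPM in humanized mice, lowest in humanized mouse 5. Of 9 leukocyte markers, 4 were called higher and none lower, and the macrophage markers Cd68 (LFC −0.74, FDR = 0.0429) and Csf1r (LFC −0.53, FDR = 0.127) were not called. Of 11 epithelial markers, 3 were called higher, with a sum of 9289 to 12475 CPM in germ-free and 10645 to 14882 CPM in humanized mice. Among all tested genes, 9.2% were called higher and 10.1% lower. The part of these marker shifts in the values of Acaca, Scd1, Scd2, Fads1, Abca1 and Abcg1 was not tested. When the libraries were scaled to the 11 epithelial markers in place of TMM, the median LFC of all genes moved to −0.24. Me1 (LFC 1.30), Elovl6 (LFC 0.49), Acaca (LFC −0.61) and Scd1 (LFC −0.81) kept their direction and their call, and 2 of the 33 genes were called higher and 7 lower instead of 3 and 2. With total counts in place of TMM, the median moved to −0.18, and 2 were called higher and 8 lower.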

How the data were processed

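RNA of colonic tissue from 5 germ-free and 6 humanized mice was sequenced by the authors with an unstranded kit as 101 bp paired-end reads, aligned to mm10 and counted per gene (per the submitters' processing notes: TopHat2 version 2.1.0, Bowtie2 version 2.2.3 and featureCounts in Subread 1.4.6-p5). The deposited values are raw counts per gene and mouse, without normalization, beside a gene length headed as coding length, whose derivation is not stated. Each column was assigned to its mouse by its label. No 2 mice of a group agreed within sampling noise (mean chi-square per gene of 21.5 or above over 25 pairs).

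In R 4.3.3 with edgeR 4.0.16, genes were filtered with filterByExpr (minimum count 10, minimum total count 15), scaled by TMM and tested between the groups with the classic exact test; p-values were adjusted by Benjamini–Hochberg and the threshold was an FDR of 0.01. The quasi-likelihood model gave SE and intervals. CPM and RPKM were computed from the counts and the deposited lengths, and log2 CPM with a prior count of 2. The quasi-likelihood test and DESeq2 1.42.0, other normalizations and filters, other thresholds, leaving out each mouse and a replicate block were alternatives. The tests were tried on simulated data.

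The 33 genes, the gene lists and the alternatives were chosen with earlier results of these data known. All 33 genes are named; values of each germ-free mouse and the range and median of the humanized mice are given for called genes and for Srebf1, Srebf2, Insig1, Hmgcs1, Sqle, Fasn, Acaca, Acly, Scd1 and Scd2, and Fads1, Mvk and Dhcr7 were described more fully after their values were seen. Of the other pathway lists, called genes are named, at most 4 a list and direction, and markers are given as lists with single examples. The list of further sterol synthesis genes is not reported here. Of the list genes, 4 were matched by identifier because their symbols are newer than those of the table. Litters and batches of the mice are not given in the sources used here, so p-values measure the spread between these mice. Overlaps of genes were taken from GENCODE M21 (GRCm38).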

Additional observations from a re-analysis of the deposited data

Results flagged for a closer look

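In 5 of 66 sets of values, each a gene in 1 group of mice, a single humanized mouse stood apart from the rest of its group by Dixon's 95% criterion, and no germ-free mouse did. Chance gives about 1 in 20 sets, so a few such sets would appear without any cause. Humanized mouse 1 was high for Mvk, with 8.12 RPKM where the next highest had 6.32 RPKM, and for Acaca, with 5.31 RPKM where the next highest had 4.49 RPKM. Humanized mouse 2 was low for Srebf2, with 37.3 RPKM where the next lowest had 44.9 RPKM. Humanized mouse 4 was low for Elovl6, with 13.5 RPKM where the next lowest had 18.4 RPKM. Humanized mouse 5 was low for Fads1, with 1.45 RPKM where the next lowest had 3.50 RPKM.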

How the results depend on the processing

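Me1, Elovl6 and Acaca kept their direction and their call in all 11 sets that leave out a mouse and in all 8 other tests, scalings and filters. Of the 33 genes, 3 were called higher and 2 lower. The number lower was 1 with the quasi-likelihood test, 5 with upper quartile scaling, 8 with total counts, 7 with epithelial scaling, 5 with a minimum of 10 counts in every mouse, 7 at an FDR below 0.05, 1 with an added limit of 0.58 on the absolute LFC, and 1 to 6 without 1 mouse. The number of sterol enzymes called was 0 and became 1 with DESeq2, upper quartile scaling, total counts, epithelial scaling or the minimum in every mouse, 2 at an FDR below 0.05, and 0 to 1 without 1 mouse. Of the regulators, 1 was called, against 0 with the quasi-likelihood test, RLE scaling, no filter or the LFC limit, 2 with total counts, epithelial scaling or an FDR below 0.05, and 0 to 2 without 1 mouse. The gene changed: it was Insig2 with DESeq2 and in the exact test with TMM, the default low-expression filter and all mice. It was Srebf1 (lower) with upper quartile scaling or the minimum in every mouse. With total counts or epithelial scaling, Srebf1 and Srebf2 were called (both lower). The fatty acid enzymes called were 4, and 3 with the quasi-likelihood test or the LFC limit, 5 with upper quartile scaling or the minimum in every mouse, 6 with epithelial scaling, 7 with total counts or an FDR below 0.05, and 3 to 6 without 1 mouse.

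With total counts the fatty acid median LFC was −0.41 and the LFC reversed for Hmgcs1 (−0.083), Fdps (−0.14), Fdft1 (−0.000204), Nsdhl (−0.12), Ebp (−0.085), Sc5d (−0.15), Scap (−0.051), Stard4 (−0.16) and Elovl5 (−0.11). With epithelial scaling the sterol median was −0.27 and the fatty acid median −0.47, and the LFC reversed for Hmgcs1 (−0.13), Fdps (−0.20), Fdft1 (−0.066), Nsdhl (−0.17), Ebp (−0.15), Sc5d (−0.22), Scap (−0.12), Stard4 (−0.23) and Elovl5 (−0.17). Upper quartile scaling gave Stard4 an LFC of −0.011. Without 1 mouse, the sterol median ran from −0.07 to 0.04, the fatty acid median from −0.27 to −0.19, and the sterol median minus the fatty acid median from 0.15 to 0.28. The LFC ran from −0.074 to 0.12 for Fdps, −0.089 to 0.039 for Hsd17b7, −0.023 to 0.085 for Sc5d and −0.028 to 0.073 for Stard4. Over all genes, 1827 were called higher and 1999 lower, against 773 and 3609 with total counts, 491 and 2807 with epithelial scaling, 1401 and 1298 with the quasi-likelihood test, and 739 and 1642 with the LFC limit. The cause of these shifts was not tested.

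Mice of the 2 groups share numbers in their labels, but these do not pair them: the correlation of deviations ran from −0.13 to 0.09. A replicate block over 10 mice with the quasi-likelihood test called 501 genes higher and 501 lower, against 1032 and 1046 without the block. With the block, 1 of the 33 genes was lower, 0 regulators were called, and Fdps (−0.040), Sc5d (−0.027) and Stard4 (−0.00305) reversed. Without the block, 1 was lower, 0 regulators were called, and Fdps (−0.0088) and Sc5d (−0.023) reversed.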

Other observations

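Markers of other cells of the colon were measured in the same libraries. Of 9 leukocyte markers, 4 were called higher in humanized mice, with a summed level of 86.4 to 184 CPM in germ-free mice and 184 to 1119 CPM in humanized mice. Jchain, the joining chain of secreted IgA and IgM, had the largest change of these 9 (LFC 3.21, FDR = 6.64e-08), and the LFC was negative for Cd68 (−0.74) and Csf1r (−0.53), which were not called. Of 6 glia and myelin markers, 5 passed the filter and 3 were called lower, and Sox10, a transcription factor of enteric glia, had an LFC of −2.33 (FDR = 1.97e-06). The shares called over all tested genes were 9.2% higher and 10.1% lower. Of 6 proliferation markers, none was called by edgeR's exact test or by its quasi-likelihood test and none had an unadjusted p below 0.05, with LFC values from 0.05 to 0.28.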
